A study of Mus musculus with 12 samples.

Results

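*Ccl17* and *Ccl22* encode the chemokines CCL17 and CCL22, which share the receptor CCR4. They were the 2 gene symbols examined here of 26699 in the count files of an RNA-seq experiment on sorted mouse synovial macrophages. The pair was selected on these data, because both genes were far higher in CD11c than in IAIE libraries and because *Ccl22* was higher with CGRP in IAIE libraries. Levels between the subsets, the CGRP change in IAIE libraries and the comparison of the CGRP changes between subsets are therefore given as descriptions, with no test. The CGRP change in CD11c libraries was not used in the selection and was tested, although it rests on CD11c libraries that entered the selection through their levels.

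The experiment used adult wild-type C57BL/6 mice. Whole knee synovium, the membrane that lines the joint, was incubated outside the body with 100 nM calcitonin gene-related peptide (CGRP), a neuropeptide released by pain-sensing nerve fibres, or with vehicle, for 4 h. MHCII+CD11c- macrophages (IAIE libraries) and MHCII+CD11c+ cells (CD11c libraries) were then sorted, giving 3 libraries in each of 4 groups: IAIE control, IAIE CGRP, CD11c control and CD11c CGRP. The control libraries are titled Healthy in the labels, and their vehicle incubation is as the authors' methods describe it. CGRP was added to the whole tissue, so that the sorted cells were exposed together with fibroblasts, vessels and nerve endings. The labels do not say whether libraries of a group came from separate animals, so p-values measure the spread between these libraries, which may be technical.

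CCL17 and CCL22 are made mainly by dendritic cells and by macrophages exposed to IL-4 or GM-CSF. CCR4 is carried by regulatory T cells, T helper 2 cells and skin-homing T cells, and CCL22 from dendritic cells is known for bringing regulatory T cells into contact with them. CCL17 has been linked to GM-CSF signalling through JAK2, STAT5 and IRF4, and to inflammatory and arthritic pain, while STAT6 downstream of the IL-4 receptor induces both genes in macrophages.

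Both genes lie on the plus strand of chromosome 8 (mm10), with 66.4 kb from the start of *Ccl22* to the end of *Ccl17*. *Ccl22* (ENSMUSG00000031779.3) spans 94745590 to 94751699 and its exons cover 2325 bases. *Ccl17* (ENSMUSG00000031780.2) spans 94810453 to 94812036 and its 3 exons cover 514 bases. No other annotated gene overlaps either of them. Of the 31-base words of their transcripts, 0 occur in annotated transcripts of genes other than the pair. *Cx3cl1*, which encodes the ligand of CX3CR1, lies between them at 94772009 to 94782427, together with the pseudogene *Gnb1-ps3*.

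**Figure D1:**
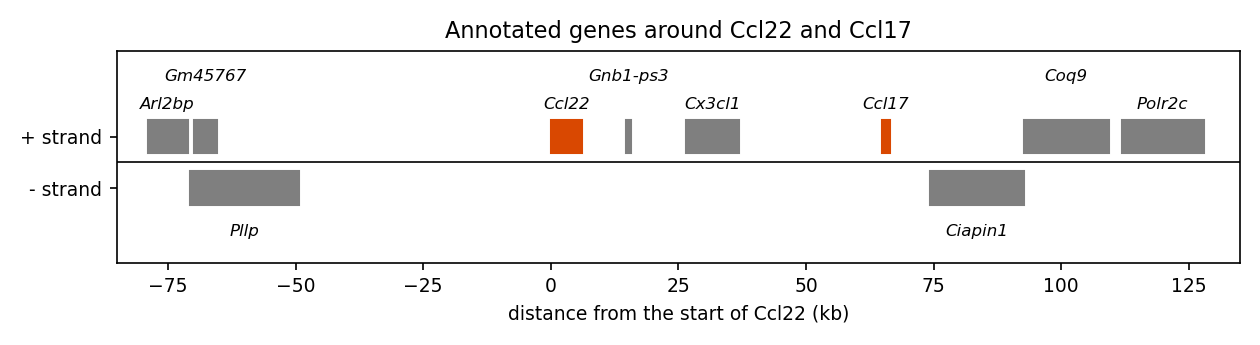
Annotated genes around *Ccl22* and *Ccl17* (orange) by distance in kb from the start of *Ccl22*. Boxes above the line are on the plus strand and those below it on the minus strand. *Cx3cl1* lies inside the 66.4 kb from the start of *Ccl22* to the end of *Ccl17*.

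The promoter windows of both genes are shown because the members shared a subset pattern and differed in their CGRP pattern. Each holds 250 bases before and 50 bases from the RefSeq transcription start site (GRCm38.p6, the assembly called mm10) and is written on the plus strand. Capitals mark matches to the motifs TTCNNNNGAA and TTCNNNGAA (spacings preferred by STAT6 and STAT5) and TGACG (the core of the cyclic AMP response element). *Ccl22* is at chr8:94745434-94745733 and *Ccl17* at chr8:94810203-94810502.
Ccl22: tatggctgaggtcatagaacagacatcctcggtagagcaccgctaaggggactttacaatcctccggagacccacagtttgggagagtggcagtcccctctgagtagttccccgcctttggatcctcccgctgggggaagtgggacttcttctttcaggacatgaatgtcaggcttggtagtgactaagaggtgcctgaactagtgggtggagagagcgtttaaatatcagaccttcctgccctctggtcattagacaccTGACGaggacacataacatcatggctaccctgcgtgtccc
Ccl17: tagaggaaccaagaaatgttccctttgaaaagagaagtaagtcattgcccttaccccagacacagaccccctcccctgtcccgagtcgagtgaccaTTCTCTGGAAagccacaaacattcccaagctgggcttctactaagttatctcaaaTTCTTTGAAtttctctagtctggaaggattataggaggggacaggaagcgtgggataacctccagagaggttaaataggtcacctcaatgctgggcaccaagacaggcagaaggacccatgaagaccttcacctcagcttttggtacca

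The *Ccl17* window held TTCTCTGGAA at -154 to -145 and TTCTTTGAA at -99 to -91 from the start site. The *Ccl22* window held TGACG at 10 to 14 downstream of the start. Positions count from the RefSeq start site. For *Ccl22* that site lies downstream of the gene start given above, and for *Ccl17* it is the same base. Among all 32841 promoter windows of this length, searched on both strands, 6.95% held TTCNNNNGAA, 8.30% TTCNNNGAA and 20.8% TGACG, which also forms part of the full element TGACGTCA (1.79%). Neither window held that full element, the AP-1 motif TGANTCA (7.81% of windows), the ETS-IRF composite motif GGAANNGAAA (2.72%) or the NF-kB consensus motif (4.51%). These matches describe the letters in the windows and are not evidence of binding.

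The libraries held 2127191 to 5649698 assigned reads. Counts per 1000000 assigned reads (CPM) were scaled by trimmed mean of M-values. On that scale 3 counts, the limit that a count of 0 allows, corresponded to 0.534 to 1.34 CPM. Intervals on single counts cover counting error only. The CD11c label was borne out by *Itgax*, which encodes CD11c: it was at 237 ± 29.0 CPM in CD11c control libraries and 6.19 ± 4.76 CPM in IAIE control libraries (SD, n = 3 each). The MHC class II gene *H2-Ab1* was high in both subsets, at 3896 ± 387 CPM in IAIE control and 10594 ± 886 CPM in CD11c control libraries.

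*Ccl17* was present almost wholly in CD11c libraries. The CD11c control libraries had 160, 293 and 279 *Ccl17* counts, or 65.3, 68.5 and 59.9 CPM. The CD11c CGRP libraries had 274, 176 and 519 counts, or 52.5, 43.6 and 92.3 CPM. The control values lie close together, and the CGRP values spread on both sides of them.

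In IAIE control libraries *Ccl17* had 0, 4 and 6 counts, which correspond to 0, 1.15 and 2.69 CPM. In IAIE CGRP libraries it had 2, 5 and 6 counts, or 0.529, 1.21 and 1.13 CPM. All 6 IAIE libraries were thus near the detection limit, and the highest of them was far below the lowest CD11c library. The 0 in IAIE control replicate 1 allows up to 0.931 CPM by the limit of 3 counts.

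*Ccl22* had more counts than *Ccl17* in 11 of the 12 libraries, IAIE control replicate 2 with 3 against 4 counts being the exception, and showed 4 separate levels. The CD11c control libraries had 472, 987 and 1276 *Ccl22* counts, or 193, 231 and 274 CPM. The CD11c CGRP libraries had 3211, 2669 and 4329 counts, or 616, 661 and 770 CPM. These 2 groups did not overlap, and the lowest CGRP library was above every control library.

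In IAIE control libraries *Ccl22* had 4, 3 and 19 counts, or 1.24, 0.860 and 8.51 CPM. In IAIE CGRP libraries it had 99, 133 and 356 counts, or 26.2, 32.3 and 67.1 CPM. The IAIE groups did not overlap either, and every IAIE CGRP library remained below every CD11c control library. The order of mean levels was therefore IAIE control, IAIE CGRP, CD11c control and CD11c CGRP for *Ccl22*, with no overlap between neighbours. The gap between the subsets and the rise in IAIE libraries had served to choose the pair, so part of this order was set by the selection. Of all tested genes, 24.9% did not overlap between the IAIE groups and 29.2% between the CD11c groups. The share for IAIE CGRP against CD11c control, or for the whole order, was not counted. For *Ccl17* only the step between the subsets separated the libraries.

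**Figure D2:**
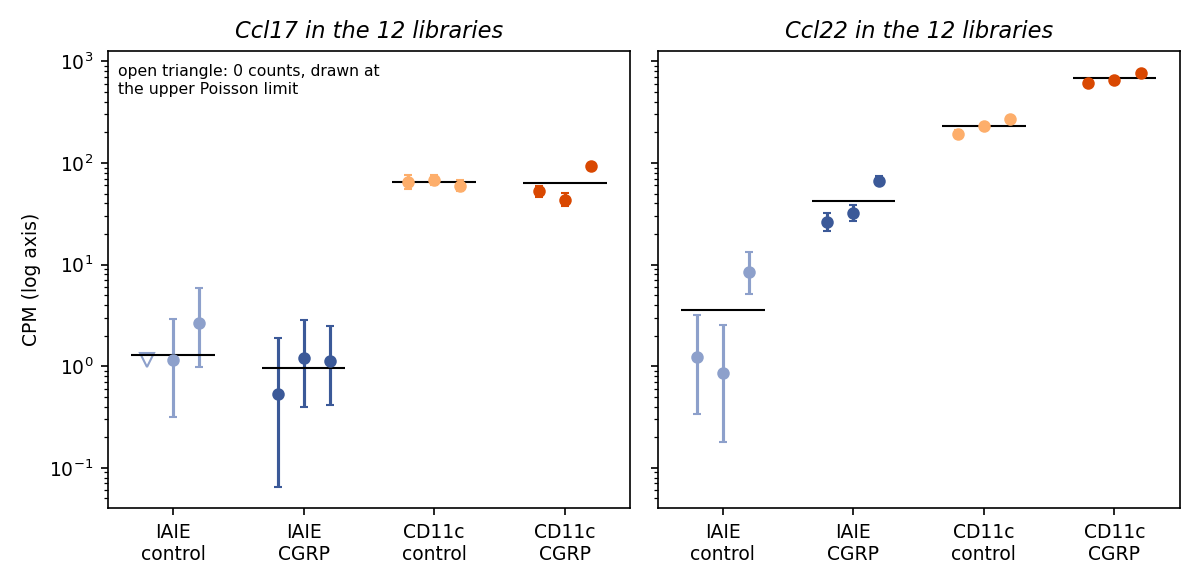
CPM (log axis) of *Ccl17* (left) and *Ccl22* (right) in the 12 libraries by group, with exact Poisson 95% intervals of each count as bars and group means as black lines. *Ccl17* sits at 43.6 to 92.3 CPM in CD11c libraries and at or below 2.69 CPM in IAIE libraries, whereas *Ccl22* forms 4 levels that do not overlap. The gap between the subsets and the *Ccl22* rise in IAIE libraries had served to choose the pair. The open triangle is the library with 0 counts, drawn at its upper Poisson limit.

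*Ccl22* rose with CGRP in CD11c libraries and *Ccl17* did not pass the test. The mean of *Ccl22* went from 232 ± 40.6 to 682 ± 79.4 CPM (SD, n = 3 each), a log2 change of 1.55 ± 0.30 (SE), or 2.93-fold, with an edgeR quasi-likelihood adjusted p of 0.00149. Of the 11927 genes tested, 6.29% passed as higher and 4.59% as lower in this comparison, and the CGRP and control groups did not overlap for 29.2% of them. DESeq2 on all 12 libraries gave nearly the same log2 change, 1.54, but with a larger SE of 0.625 and an adjusted p of 0.0958, which misses the threshold of 0.05. DESeq2 on the CD11c libraries alone, a fit added after the data were seen, gave 1.55 ± 0.14 with an adjusted p of 2.36e-25.

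*Ccl17* had means of 64.5 ± 4.37 CPM in CD11c control and 62.8 ± 26.0 CPM in CD11c CGRP libraries (SD, n = 3 each). Its log2 change was -0.03 ± 0.30 (SE), with an edgeR adjusted p of 0.970 and a 95% interval from -0.66 to 0.59. On the linear scale the interval runs from 0.632-fold to 1.51-fold, and changes within it are compatible with these libraries. The sign turned without CD11c CGRP replicate 1 (0.05) or replicate 2 (0.17), and the value was -0.45 without replicate 3.

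The relation between both transcripts within a library does not depend on the scaling between libraries. In CD11c control libraries there were 2.95, 3.37 and 4.57 *Ccl22* counts for each *Ccl17* count, and in CD11c CGRP libraries 11.7, 15.2 and 8.34. The groups did not overlap, and the mean log2 ratio was 1.83 ± 0.32 without and 3.51 ± 0.43 with CGRP (SD, n = 3 each). The difference of 1.68, or 3.19-fold, had p = 0.10 in an exact two-sided permutation test, the smallest value that 3 against 3 libraries can give.

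**Figure D3:**
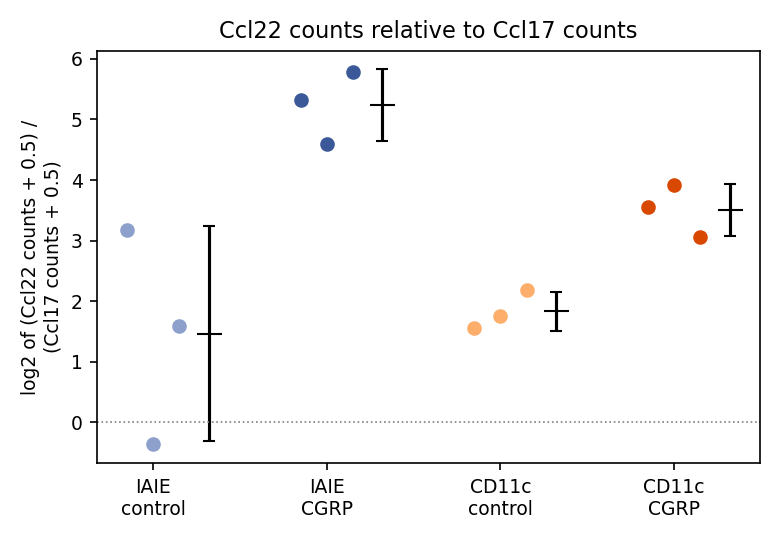
Log2 ratio of *Ccl22* to *Ccl17* counts, with 0.5 added to each count, in the 12 libraries by group, with mean ± SD beside the points. The CD11c CGRP libraries lie at 3.06 to 3.92, above the CD11c control libraries at 1.56 to 2.19. The IAIE ratios rest on 0 to 6 *Ccl17* counts.

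In IAIE libraries the CGRP change, which had served to choose the pair, was larger for *Ccl22*. Its mean went from 3.54 ± 4.31 to 41.9 ± 22.1 CPM (SD, n = 3 each), a log2 change of 3.81 ± 0.48 (SE). IAIE control replicate 3 held 19 of the 26 *Ccl22* counts of its group, and without it the change was 5.33. In this comparison 5.32% of tested genes passed as higher, 3.89% as lower, and 24.9% had groups that did not overlap, percentages that are given only as a background since the contrast chose the gene. *Ccl17* had a log2 change of -0.20 ± 0.76 on 10 and 13 summed counts, which carries no direction.

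The difference of the CGRP changes, CD11c minus IAIE, was -2.26 ± 0.59 on the log2 scale for *Ccl22* and 0.17 ± 0.81 for *Ccl17*. In CPM the order was the other way round for *Ccl22*, whose mean went up by more units in CD11c than in IAIE libraries. These values share the IAIE libraries with the selection and were not tested.

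Between the subsets the pair was high in CD11c libraries at both conditions. The CD11c minus IAIE log2 difference of *Ccl17* was 5.79 ± 0.48 in control and 5.96 ± 0.45 in CGRP libraries. That of *Ccl22* was 6.27 ± 0.45 in control and 4.01 ± 0.33 in CGRP libraries. Among tested genes, 10.2% passed as higher and 10.9% as lower in CD11c control than in IAIE control libraries, and 34.2% had groups that did not overlap. With CGRP these shares were 8.36%, 8.51% and 34.8%. Without IAIE control replicate 3 the control differences were 6.70 for *Ccl17* and 7.77 for *Ccl22*, and without IAIE control replicate 1 that of *Ccl17* was 5.17.

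The level in IAIE libraries can be set beside that of *Itgax*, the gene of the sorting marker. In control libraries the IAIE mean was 1.98% of the CD11c mean for *Ccl17*, 1.52% for *Ccl22* and 2.62% for *Itgax*. With CGRP it was 1.53% for *Ccl17*, 6.14% for *Ccl22* and 4.66% for *Itgax*. *Itgax* ranged from 1.24 to 10.7 CPM in IAIE control and from 1.70 to 9.53 CPM in IAIE CGRP libraries, and those ranges overlapped. The *Ccl22* ranges did not, but the *Ccl22* rise there had served to choose the pair. *Itgax* was also lower with CGRP in CD11c libraries, so equal *Itgax* levels in IAIE libraries need not mean equal shares of CD11c+ cells. The part of CD11c+ cells in the IAIE values was not tested. IAIE control replicate 3 had the highest level of its group for *Itgax*, *Ccl17* and *Ccl22*. In sorted bulk samples, a few CD11c+ cells that express a gene and a low level per cell cannot be told apart.

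*Itgax* itself fell with CGRP in CD11c libraries, from 237 ± 29.0 to 115 ± 7.33 CPM (log2 -1.03 ± 0.30, edgeR adjusted p 0.0288), while *Ccl22* rose in the same libraries. The CGRP receptor is formed by the products of *Ramp1* and *Calcrl*. *Ramp1* fell from 23.6 ± 7.82 to 6.27 ± 2.88 CPM in CD11c libraries (adjusted p 0.00307), and *Calcrl* was at 41.8 ± 8.62 and 41.4 ± 4.39 CPM. In IAIE libraries *Ramp1* was at 6.62 ± 1.49 without and 2.86 ± 0.76 CPM with CGRP, which did not pass the test (adjusted p 0.103).

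The receptor side of the axis was all but absent from these libraries. *Ccr4* had at most 1 count and *Ackr2*, which encodes a scavenging receptor for these chemokines, at most 5 counts in any library. Neither was tested. *Dpp4* encodes a peptidase that trims CCL22. It fell with CGRP in CD11c libraries from 24.5 ± 7.25 to 5.87 ± 2.16 CPM (log2 -2.07 ± 0.44, edgeR adjusted p 0.00322). In IAIE libraries it was at 2.78 ± 1.47 and 2.62 ± 1.22 CPM.

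*Cx3cl1*, the gene between the pair, was low, with at most 63 counts. Its levels were 8.75 ± 1.94 CPM in CD11c control and 8.34 ± 2.60 CPM in CD11c CGRP libraries, against 0.531 ± 0.578 and 1.05 ± 1.61 CPM in IAIE libraries. It was thus higher in CD11c libraries at both conditions (edgeR adjusted p 0.00538 and 0.0138), although the second call was lost without IAIE CGRP replicate 2 or CD11c CGRP replicate 3. Its receptor gene *Cx3cr1* was lower in CD11c control than in IAIE control libraries (4.03 ± 1.27 against 17.4 ± 2.45 CPM) and fell with CGRP in IAIE libraries to 5.38 ± 1.46 CPM (adjusted p 0.00833). Of the 3 tested genes of the CCR4 axis list, 0 rose and 1 fell with CGRP in CD11c libraries. Of all tested genes, 6.29% rose and 4.59% fell. The list had a median log2 change of -0.22 against 0.0016 over all tested genes.

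Of the neighbours outside the stretch, *Arl2bp*, *Ciapin1*, *Coq9* and *Polr2c* were tested, and *Pllp* and *Gm45767* were not, at no more than 10 counts in any library. None of the 4 tested neighbours passed for CGRP, and the smallest unadjusted p among them in CD11c libraries was 0.0995. Their log2 changes were -0.44 for *Arl2bp*, -0.19 for *Ciapin1*, 0.09 for *Coq9* and 0.16 for *Polr2c* in CD11c libraries, with adjusted p-values from 0.339 to 0.949 by edgeR. *Arl2bp* alone of them was higher in CD11c control than in IAIE control libraries (log2 1.07).

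Among CC chemokines the pair ranked differently in each group. Levels between genes were compared as CPM per kb of exon over the 17 CC chemokine symbols in the files. In CD11c control libraries *Ccl17* was at rank 5 with 126 ± 8.50 (SD, n = 3) and *Ccl22* at rank 9 with 99.9 ± 17.5 CPM per kb. The libraries of *Ccl17* lay below those of *Ccl3* at rank 4 and overlapped those of *Ccl4* at rank 6, while *Ccl22* overlapped *Ccl5* at rank 8 and lay above *Ccl24* at rank 10. In CD11c CGRP libraries *Ccl22* was at rank 5 with 293 ± 34.2 and *Ccl17* at rank 8 with 122 ± 50.5 CPM per kb, and both overlapped their neighbours in the order. In IAIE libraries *Ccl22* was at rank 12 without CGRP and at rank 10 with it, with 1.52 ± 1.85 and 18.0 ± 9.50 CPM per kb. The top 4 of both IAIE groups were *Ccl2*, *Ccl3*, *Ccl4* and *Ccl7*. Per length, *Ccl17* was above *Ccl22* in CD11c control libraries by group mean, the reverse of the order in counts, and the ranges of 116 to 133 and 82.8 to 118 overlapped.

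Of the other 11 tested CC chemokines, 3 rose and 0 fell with CGRP in CD11c libraries, where 6.29% of all tested genes rose and 4.59% fell. The median log2 change was 0.46 against 0.0016 over all tested genes. *Ccl3*, which attracts monocytes, rose by 1.39 ± 0.20, *Ccl5* by 1.92 ± 0.39 and *Ccl9* by 0.52 ± 0.13 (edgeR adjusted p 0.000116, 0.0025 and 0.0102). In IAIE libraries the same 3 genes rose, by 0.88 for *Ccl3*, 1.85 for *Ccl5* and 0.80 for *Ccl9*. The monocyte attractant *Ccl2* fell there by 0.79 (edgeR adjusted p of these genes from 0.000422 to 0.0125). Of all tested genes, 5.32% rose and 3.89% fell in IAIE libraries. The call of *Ccl9* in CD11c libraries was lost without CD11c control replicate 2 or CD11c CGRP replicate 3, that of *Ccl5* in IAIE libraries without IAIE CGRP replicate 2, and that of *Ccl2* without IAIE control replicate 2 or IAIE CGRP replicate 3. Between subsets, 2 of the 11 were higher and 6 lower in CD11c control libraries, with a median of -1.92 against -0.023 over all tested genes. Of all tested genes, 10.2% were higher and 10.9% lower. *Ccl17* and *Ccl22* at 5.79 and 6.27 lay above each of the 11, a place that their selection had fixed.

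**Figure D4:**
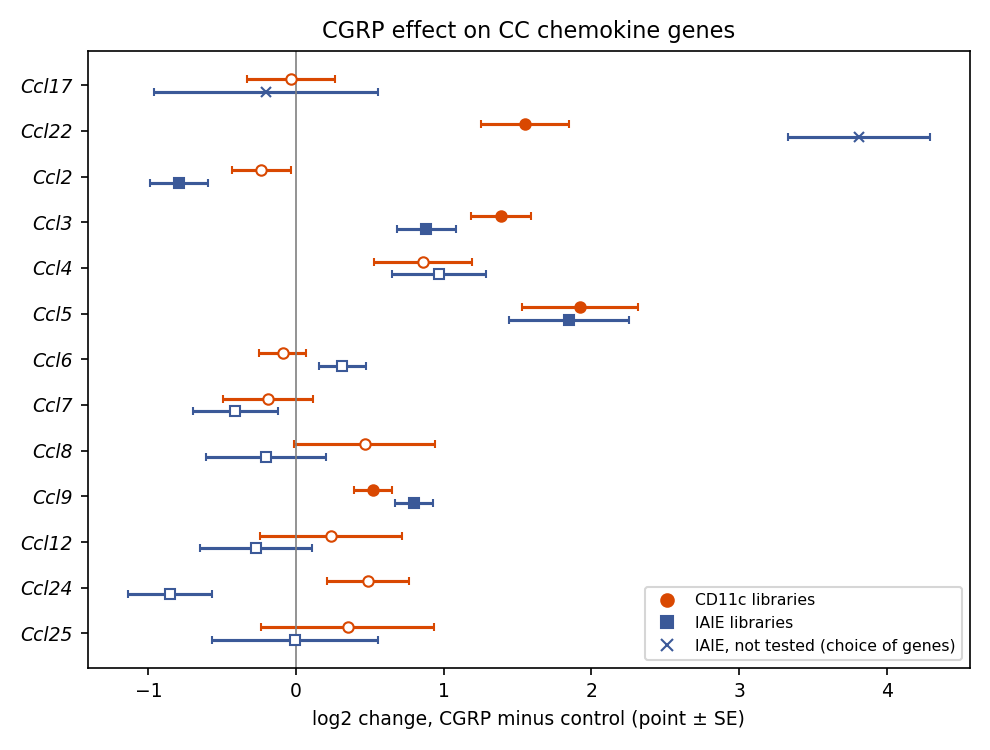
Log2 change with CGRP (point ± SE from edgeR) of *Ccl17*, *Ccl22* and the 11 other tested CC chemokine genes in CD11c (orange circles) and IAIE libraries (blue). Filled symbols have an adjusted p under 0.05, open symbols do not, and crosses mark the IAIE values of the pair, which were not tested. *Ccl22* lies at 1.55 and 3.81, and *Ccl17* at -0.03 and -0.20.

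The GM-CSF route was higher in CD11c libraries and in part lower with CGRP. Of 8 tested genes of that list, 8 were higher in CD11c than in IAIE libraries at both conditions. The list holds receptor chains, kinase, STATs, *Irf4* and *Kdm6b*. Medians were 1.17 without and 1.15 with CGRP, against -0.023 and 0.0022 over all tested genes, of which 10.2% and 8.36% were higher. *Csf2rb*, the shared receptor chain, had 660 ± 116 CPM in IAIE control and 2003 ± 56.4 CPM in CD11c control libraries. With CGRP, 0 of the 8 rose and 3 fell in each subset, with medians of -0.39 in CD11c and -0.40 in IAIE libraries, where 4.59% and 3.89% of all tested genes fell.

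The 3 genes that fell were the same in both subsets: *Irf4*, *Kdm6b*, which encodes a histone demethylase, and *Csf2ra*, the ligand-specific receptor chain. *Irf4* had 283 ± 25.6 CPM in CD11c control and 130 ± 23.2 CPM in CD11c CGRP libraries (log2 -1.12 ± 0.15, edgeR adjusted p 4.92e-05). In IAIE libraries *Irf4* had 134 ± 12 and 76.8 ± 10.8 CPM (-0.81 ± 0.16, adjusted p 0.002). *Kdm6b* changed by -0.79 and *Csf2ra* by -0.64 in CD11c libraries. The ligand gene *Csf2* had at most 13 counts in any library and was not tested.

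Of 9 tested genes of the IL-4, IL-13 and TSLP route, 1 rose and 2 fell with CGRP in CD11c libraries, with a median log2 change of -0.11 against 0.0016 over all tested genes, of which 6.29% rose and 4.59% fell. The single gene that rose is a share near that background. The IL-13 receptor chain *Il13ra1* rose by 0.60 ± 0.19 (edgeR adjusted p 0.0417), the kinase gene *Jak1* fell by 0.85 ± 0.13 (adjusted p 0.00015), and the TSLP receptor chain *Crlf2* fell by 0.46 ± 0.15 (adjusted p 0.0493). The calls of *Il13ra1* and *Crlf2* each held in only 7 of 20 alternative fits. *Stat6* had 201 ± 20.7 and 185 ± 11.6 CPM, and *Il4ra* 578 ± 34.5 and 655 ± 14.2 CPM, without and with CGRP in CD11c libraries, and neither passed the test. In IAIE libraries *Il13ra1* rose by 0.93, *Il7r* rose by 0.92 and *Jak1* fell by 0.70 (adjusted p from 0.00118 to 0.00965). The *Il7r* call was lost without IAIE control replicate 1 or replicate 2.

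Genes known to respond to IL-4 in macrophages moved in both directions with CGRP. In CD11c libraries 3 of 13 rose and 2 fell, with a median log2 change of -0.19, against 6.29% and 4.59% of all tested genes. *Arg1*, which encodes an arginine-degrading enzyme, rose by 3.86 ± 0.81 and *Pdcd1lg2*, which encodes the checkpoint ligand PD-L2, by 1.83 ± 0.33 (edgeR adjusted p 0.0033 and 0.000901). The lectin gene *Mgl2* fell by 1.51 ± 0.20 and *Retnla* fell by 0.86 ± 0.12 (adjusted p 4.37e-05 and 8.04e-05). In IAIE libraries 2 rose, *Arg1* by 4.04 among them, and 5 fell, including *Clec10a* with -1.34, *Mgl2* with -1.08 and *Retnla* with -0.87. Of all tested genes, 5.32% rose and 3.89% fell there.

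Genes of mature dendritic cells were for the most part higher in CD11c libraries, as the pair was. Of 20 tested, 14 were higher in CD11c control and 15 in CD11c CGRP than in the matching IAIE libraries and 0 were lower. Medians were 0.94 and 1.10. Of all tested genes, 10.2% and 8.36% were higher and 10.9% and 8.51% lower. In each of 20 alternative fits, 11 of the 14 and 12 of the 15 kept their call. With CGRP, 5 rose and 1 fell in CD11c libraries, with a median log2 change of 0.095, where 6.29% of all tested genes rose and 4.59% fell. In IAIE libraries 3 rose and 3 fell, with a median of -0.25, where 5.32% of all tested genes rose and 3.89% fell. The migration receptor gene *Ccr7* went from 240 ± 33.4 to 576 ± 53.9 CPM in CD11c libraries (log2 1.26 ± 0.17, edgeR adjusted p 5.32e-05) and was at 42.3 ± 10.5 and 43.5 ± 10.1 CPM in IAIE libraries. The difference of the *Ccr7* changes between the subsets was 1.20 ± 0.26 with an edgeR adjusted p of 0.0675.

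*Cd274*, which encodes PD-L1, rose in both subsets, by 1.33 ± 0.16 in CD11c and 2.07 ± 0.16 in IAIE libraries (edgeR adjusted p 1.16e-05 and 5.61e-07). The calcium channel subunit gene *Cacnb3* had 6.12, 5.38 and 15.2 CPM in CD11c control and 52.4, 57.2 and 99.5 CPM in CD11c CGRP libraries. It had 0 counts in the IAIE control libraries and 1.85, 3.40 and 12.1 CPM in IAIE CGRP libraries, at least 5.53-fold higher by group mean against 3 counts per library (adjusted p 0.00308, lost with limma-voom and with only the IAIE libraries). *Cd83* fell in both subsets, by 0.56 in CD11c and 0.78 in IAIE libraries, and *Nfkb2* fell by 0.59 in IAIE libraries (adjusted p from 0.00108 to 0.0121).

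The genes whose profile over the 12 libraries lay nearest to each member differed. Likeness was the root mean square difference of log2 CPM after centring each gene on its mean, among 8462 genes whose mean reached 5 CPM. Nearest to *Ccl17* were *Itgax* (0.75), *Dcstamp* (0.96), *Havcr1* (1.04), *Sema7a* (1.10) and *Nr4a3* (1.17). *Ccl22* came only at rank 41 for *Ccl17*, at 1.57.

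Nearest to *Ccl22* were *Serpinb9b* (1.07), *Cacnb3* (1.10), *Itgb8* (1.15), *AA467197* (1.28) and *Mmp12* (1.43), with *Ccl17* at rank 12. The elastase gene *Mmp12* shows their shared form by group mean, with 16.0 and 92.1 CPM in IAIE libraries without and with CGRP. In CD11c libraries *Mmp12* had 113 and 670 CPM. Unlike those of *Ccl22*, the IAIE CGRP and CD11c control libraries of *Mmp12* overlapped, as did those of *Cacnb3*. For *Serpinb9b* the CD11c control and CD11c CGRP libraries overlapped. *Dcstamp*, which encodes a protein of osteoclast fusion, shows the step between subsets of the *Ccl17* group. It had 2.40 and 1.21 CPM in IAIE and 64.8 and 67.6 CPM in CD11c libraries without and with CGRP. Not all of that group stayed level with CGRP in CD11c libraries. There the mean of *Itgax* went from 237 to 115 CPM, that of *Sema7a* from 40.9 to 59.0 CPM and that of *Nr4a3* from 1897 to 2430 CPM. *Havcr1* had 15.7 and 17.4 CPM. These values describe the 12 libraries, which share the 2 subsets, and no test was made on them.

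**Figure D5:**
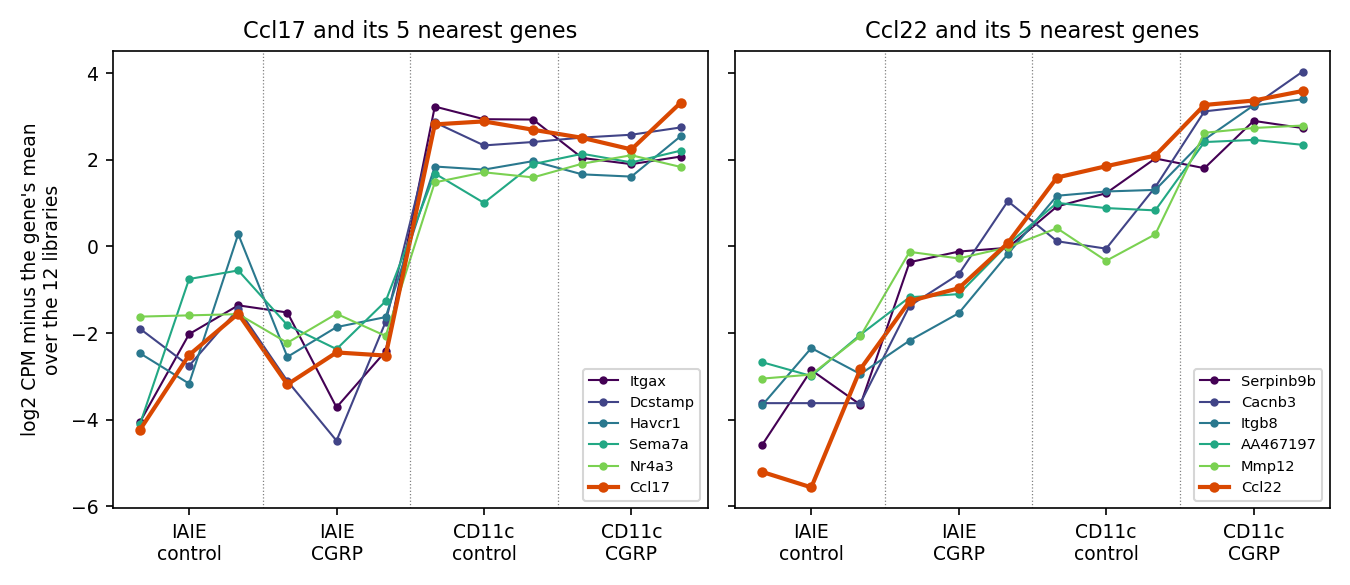
Log2 CPM in the 12 libraries, centred on each gene's mean, for *Ccl17* (left, orange) and *Ccl22* (right, orange) with the 5 genes of the smallest root mean square difference. The *Ccl17* group steps up between the subsets. By group mean the *Ccl22* group also rises with CGRP within each subset, although the CD11c control and CD11c CGRP libraries of *Serpinb9b* overlap. Lines join libraries for reading only.

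Markers of other cells were counted in the same libraries. The 10 dendritic cell markers, which include *Ccr7* and *Dpp4*, summed to 116 to 184 CPM in IAIE control, 94.2 to 121 in IAIE CGRP, 650 to 724 in CD11c control and 693 to 795 CPM in CD11c CGRP libraries. Of 8 tested, 5 were higher and 0 lower in CD11c control than in IAIE control libraries, against 10.2% and 10.9% of all tested genes. With CGRP, *Cd209a* fell by 1.91 ± 0.18 and *Flt3* fell by 2.03 ± 0.53 in CD11c libraries (edgeR adjusted p 2.26e-06 and 0.0169), and *Flt3* fell by 2.20 in IAIE libraries (adjusted p 0.0241). The *Flt3* calls were lost without CD11c CGRP replicate 2 in CD11c libraries and in 5 of 20 alternative fits in IAIE libraries. The summed level thus moved little while *Ccr7* rose and *Cd209a* and *Flt3* fell.

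The 10 macrophage markers summed to 6934 to 8870 CPM in IAIE control and 2780 to 3267 CPM in CD11c control libraries. In this comparison 10 of 10 were lower in CD11c, against 10.9% of all tested genes. With CGRP the markers summed to 5848 to 7485 CPM in IAIE and 2235 to 3239 CPM in CD11c libraries. *Fcgr1*, a gene for an activating Fc receptor, rose with CGRP in CD11c and IAIE libraries (log2 1.78 and 1.38), and *Mrc1* fell by 0.49 in IAIE libraries (edgeR adjusted p from 5.96e-05 to 0.0493), the latter in 10 of 20 alternative fits. The 2 Langerhans cell markers summed to at most 9.72 CPM and the 4 T cell markers in the files to at most 7.45 CPM in any library.

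B cell markers were lower in CD11c libraries, at 0.712 to 8.97 CPM in sum against 17.7 to 91.5 CPM in IAIE libraries. Among CD11c libraries the sum was 6.87 to 8.97 CPM without CGRP and 0.712 to 3.71 CPM with it. Neutrophil markers ranged from 0 to 171 CPM and mast cell markers from 0 to 133 CPM. The summed fibroblast markers were at 17.9 to 23.8 CPM in CD11c control libraries and at 257, 352 and 61.2 CPM in CD11c CGRP replicates 1, 2 and 3. Of 5 tested, 1 passed as higher and 0 as lower with CGRP, against 6.29% and 4.59% of all tested genes. Their median log2 change was 3.96, against 0.0016 over all tested genes. *Dcn*, a matrix proteoglycan gene, passed the test there (log2 4.88 ± 0.84, edgeR adjusted p 0.000577), a call that was lost with limma-voom and held in the other 19 of 20 alternative fits. All CD11c CGRP libraries, replicate 3 included, had a fibroblast sum above every CD11c control library. The log2 change of *Ccl22* was 1.59, 1.57 and 1.43 without CGRP replicates 1, 2 and 3 (edgeR adjusted p 0.00307, 0.00351 and 0.00808). Each of these fits kept CGRP libraries with fibroblast sums above the control range. In IAIE libraries the fibroblast sum was 140 to 1027 CPM without and 36.9 to 1537 CPM with CGRP, and *Col1a1* and *Col1a2* fell (adjusted p 0.0147 and 0.0165), each in 16 of 20 alternative fits. The part of B cells and fibroblasts in the *Ccl22* values was not tested.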

How the data were processed

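RNA-seq was performed on sorted synovial macrophages in 12 libraries, 3 in each of 4 groups, with a stranded total RNA kit. The authors trimmed reads with Trim Galore, checked them with FastQC, aligned them to mm10 with HISAT2 and assigned them to genes with featureCounts. Versions and the strand setting are not given in the sources used here. The deposited values are raw counts per gene symbol, not normalized. A further table repeated these counts, and 6 of its columns that matched no sample were not used.

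Genes were kept by edgeR's filterByExpr (minimum count 10, minimum total 15), which left 11927. *Ccl17* passed this filter only through the CD11c libraries. edgeR 4.0.16 (R 4.3.3) was run with TMM scaling, group means and quasi-likelihood tests, with Benjamini-Hochberg adjusted p-values and a threshold of 0.05. The study's own tool, DESeq2 (1.42.0), was an alternative, as were limma-voom (3.58.1), 1 surrogate variable (sva 3.50.0), RLE and upper-quartile scaling, no filter, a replicate block, fits with only the libraries compared and leaving out each library. In simulated counts for CGRP in CD11c libraries over 11410 genes, 31.9% of genes changed by a log2 of 1 and 67.3% of those changed by 2 were recovered.

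Gene positions came from GENCODE M21 and promoter windows from RefSeq. Exon lengths are the union of annotated exons. Replicate pairs differed beyond sampling noise, with a chi-square per degree of freedom of at least 6.17, so no library was counted as a repeat, which does not show that they came from separate animals. Genes named were both members, their sorting markers and receptor genes, every gene of the CCR4 axis list, *Irf4*, *Stat6*, *Csf2ra*, *Csf2rb*, *Il4ra*, *Crlf2* and *Ccr7*, up to 4 genes of smallest p among those past the threshold for CGRP from each other list and subset, the 5 genes nearest to each member, and 3 annotated genes on each side. A result of 1 gene that this rule named is not reported here. Members and gene lists were chosen with earlier results of these data known.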

Additional observations from a re-analysis of the deposited data

Results flagged for a closer look

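*Dcn*, a fibroblast gene, moved in opposite directions with CGRP in the 2 subsets by group mean, although its fall in IAIE libraries did not pass the test. Its mean went from 1.93 ± 0.52 to 56.1 ± 49.0 CPM in CD11c libraries and from 34.1 ± 11.9 to 8.23 ± 8.30 CPM in IAIE libraries (SD, n = 3 each), and the difference of the log2 changes was 6.96 ± 1.10 (edgeR adjusted p 0.00898). Leaving aside *Ccl17* and *Ccl22*, it was the only gene named by the rule for which this difference passed the test. The difference for the pair shares the IAIE libraries with the selection and was not tested.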

How the results depend on the processing

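Across the results on *Ccl17* and *Ccl22*, 160 of 169 alternative values kept their direction and their side of the threshold, or moved by less than the replicate SD where no test was made. DESeq2 on all libraries gave 1.54 for *Ccl22* with CGRP in CD11c libraries and missed the threshold (adjusted p 0.0958), and the cause was not tested. The other alternatives kept that call, with log2 changes from 1.43 to 1.66 when 1 library was left out. Leaving out 1 library moved *Ccl17* between -0.45 and 0.17 in CD11c and between -0.83 and 0.72 in IAIE libraries, with turns of sign, and limma-voom gave 0.15 for *Ccl17* in IAIE libraries. It moved *Ccl22* between 3.29 and 5.33 for CGRP in IAIE libraries, between 5.75 and 7.77 for the subsets without CGRP and between 3.77 and 4.54 with it. The last extreme came without IAIE CGRP replicate 3, the others for *Ccl22* at the upper end without IAIE control replicate 3. With only the IAIE libraries fitted, *Ccl17* fell below the count filter and gave no value. Without IAIE CGRP replicate 2 the number of genes that passed for CGRP in IAIE libraries was 722 against 1099.

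Same-numbered libraries did not deviate together throughout, with correlations over 7161 genes from -0.017 to 0.287, and in no comparison were all 3 above 0.1, so that the numbers were not taken as pairs. Fitted with that number as a block, the log2 change in CD11c libraries was 1.57 for *Ccl22* (adjusted p 6.35e-05) and -0.11 for *Ccl17*, and in IAIE libraries 3.74 and -0.26. The block moved the number of genes passing for CGRP in CD11c libraries from 1298 to 1423. The ratio of both transcripts in CD11c libraries kept its difference of 1.68 with p = 0.25 in an exact permutation test over same-numbered pairs of the block, the smallest value of 3 pairs. The *Ccl17* values of IAIE libraries rest on 0 to 6 counts.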
